A study of Mus musculus with 6 samples.

Results

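Transcripts of 49 genes that build ribosomes or transcribe ribosomal RNA were followed in NCI-H2228 tumours after treatment of the host mice with CH5424802, an inhibitor of the ALK kinase that was later named alectinib. The 49 genes are a list of symbols that was chosen with earlier results of these data known. Each was represented by the brightest probe set that the platform annotation assigns to that gene alone. Of the 49, 37 had such a probe set with a mean log2 intensity of at least 4 over the 6 arrays and were tested, among 10271 genes tested in all. A further 7 lay under that level, namely POLR1A, RRP9, IMP4, BYSL, PES1, WDR74 and GRWD1. NOP56, DKC1 and BOP1 were represented only by probe sets that list several genes, and DDX18 and GNL3 were not listed with any probe set in the annotation used. Those 12 genes have no value in the comparisons. GRWD1, with a mean of 3.79, lay just under the level and NOP14, with a mean of 4.68, just above it.

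NCI-H2228 is a human lung adenocarcinoma cell line with an EML4-ALK fusion, and its cells grew as tumours under the skin of SCID mice, which lack most lymphocytes. The 3 groups, of 2 arrays each, received vehicle, 4 mg/kg or 20 mg/kg CH5424802 by mouth, and tumours were taken 6 h later. All the groups carry the same cell line in the same host strain, and no untreated tumour or second cell line was analysed here. Nothing in the labels ties the paired arrays of a dose to different mice. The p-values therefore reflect array-to-array spread alone, and that spread may be technical.

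Ribosome assembly begins in the nucleolus, where RNA polymerase I transcribes a long precursor RNA that is cut, chemically modified and folded into the RNAs of both ribosomal subunits. Small nucleolar ribonucleoproteins guide the modification of that precursor, a large complex called the small-subunit processome assembles on its 5′ part, and separate sets of factors mature the large subunit. Growth signalling and the transcription factor MYC are known to drive many of these genes, which makes them a readout of how much a cell invests in protein synthesis.

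The values are log2 intensities from an array of human probe sets, although the labels give mouse as the organism. The 7 epithelial and lung markers were all measured, NKX2-1 and EPCAM among them, with a summed intensity of 75586 and 83971 with vehicle, 81668 and 83889 at 4 mg/kg, then 64553 and 74078 at 20 mg/kg. The sum was lowest in both 20 mg/kg arrays, while single markers lay on both sides of vehicle, with the 4 keratins below 0 and the other 3 above. EPCAM was at 0.50 (SE 0.111, adjusted p = 0.104), CDH1 at 0.23 and NKX2-1 at 0.10. By limma KRT18 fell (log2 change -1.54, adjusted p = 0.0416 by limma), a call lost whichever array was left out (adjusted p 0.0905 to 0.155). The leukocyte list summed to between 104 and 108 in every array, and PTPRC, its defining gene, read 2.51 throughout, near the lowest value of the table, 2.19. The probe sets are of human genes and the host is mouse, so these readings cannot tell how many host leukocytes were present. In bulk tumours, fewer cells of a type and less RNA per cell cannot be told apart. A control probe set for the 5′ part of 18S ribosomal RNA read 1713 and 4058 with vehicle, 489 and 374 at 4 mg/kg, then 573 and 637 at 20 mg/kg, so both vehicle arrays lay above all treated ones. The 3′ to 5′ ratio of the ACTB control lay between 0.988 and 1.07 in the 6 arrays. The part of these differences in the results below was not tested.

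At 20 mg/kg the genes stood mostly below vehicle. The median log2 change of the 37 tested genes was -0.42, against 0.00 over all tested genes, and 32 of the 37 were below 0, 3 above it and 2 equal, where 49.4% of all tested genes were below 0 and 41.8% above. The genes that passed the test all fell, and they were NOP16, UTP4, NAT10 and CCDC86. That is 4 of 37 genes lower by limma (adjusted p under 0.05, Benjamini-Hochberg over all tested genes), or 10.8%, beside 2.07% of all tested genes called lower, and 0 of 37 higher, beside 2.26%. At an unadjusted p under 0.05, 16 were lower and 1 was higher, beside 11.5% and 12.7% of all tested genes. Both 20 mg/kg arrays lay below both vehicle arrays for 28 of the 37, or 75.7%, beside 25.9% of all tested genes, and above both for 2, beside 24.5%. The list was chosen with earlier results of these data known, which limits this and the later comparisons with all tested genes. The 4 calls rest on few arrays. None of these genes passed when either 20 mg/kg array was left out (adjusted p 0.0697 to 0.135), and only CCDC86 passed when each of the other 4 arrays was left out. Counting all 37, the lower calls numbered 3 without vehicle replicate 1, 1 without vehicle replicate 2, 2 without either 4 mg/kg array, 1 (RRS1) without replicate 1 of 20 mg/kg, and none without its replicate 2. The lower calls among all tested genes moved as well, from 213 to 452, 62, 68 (in either case), 8 and 1 in the same order. The median change lay between -0.47 and -0.40 in these fits.

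**Figure D1:**
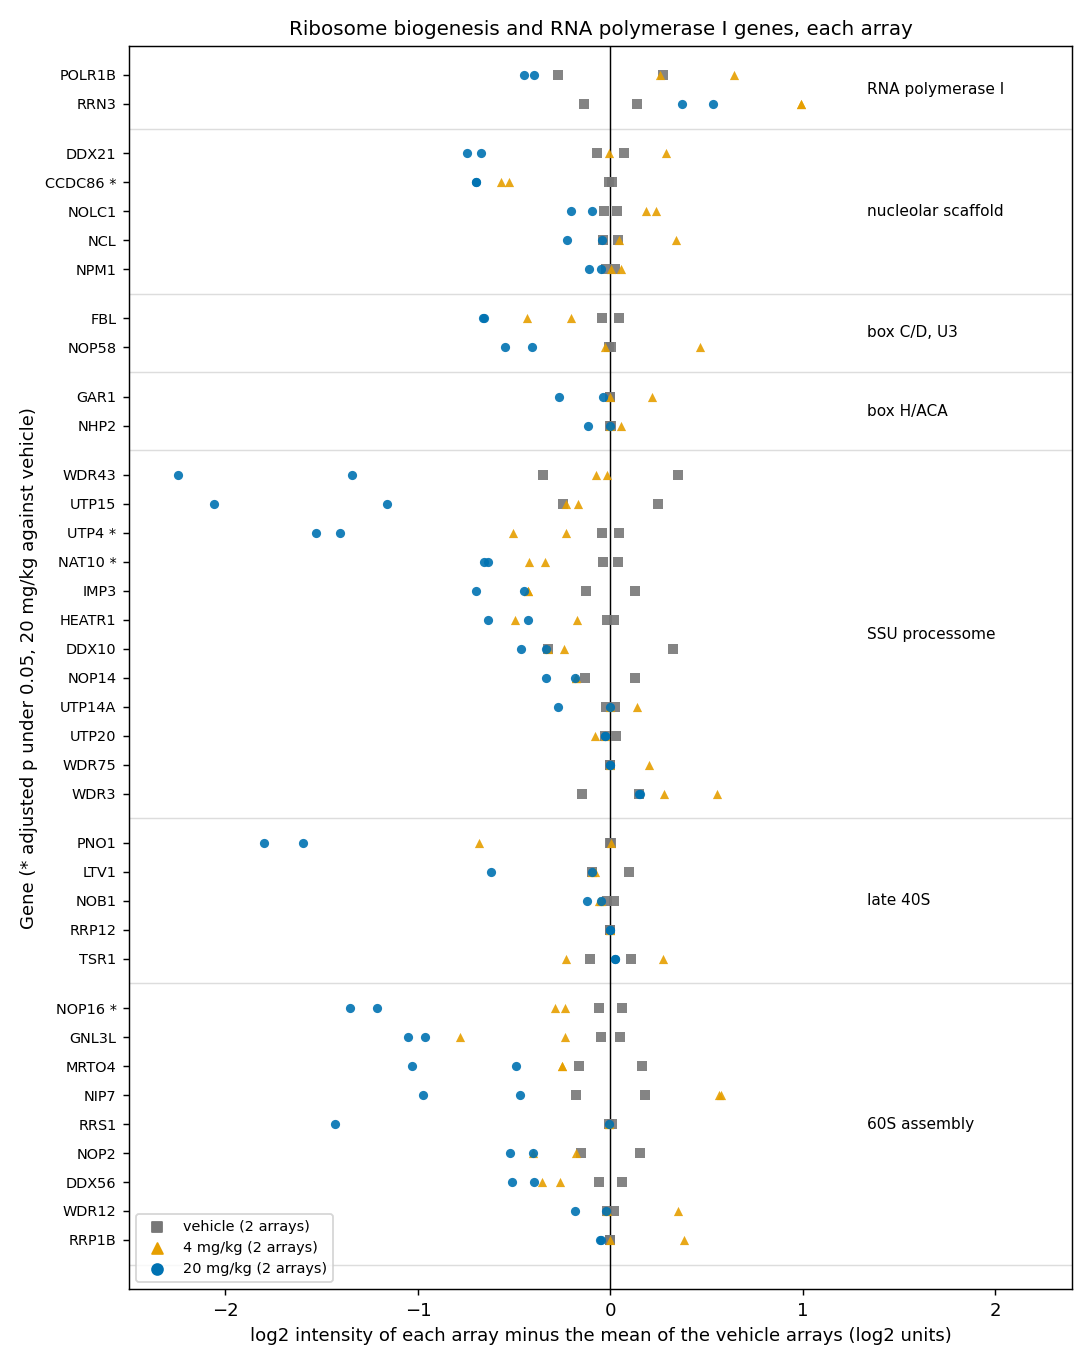
Log2 intensity of each array minus the mean of the vehicle arrays (x axis, log2 units) for the 37 tested genes (rows, grouped by role), with grey squares for vehicle, orange triangles for 4 mg/kg and blue circles for 20 mg/kg, 2 arrays each. The blue circles of 28 genes lie left of both grey squares, and a star marks the 4 genes with an adjusted p under 0.05 at 20 mg/kg.

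The small-subunit processome held the widest span. UTP4, a subunit of the UTP-A subcomplex that is among the first to bind the growing precursor RNA, read 9.23 and 9.31 with vehicle, 8.76 and 9.04 at 4 mg/kg, then 7.74 and 7.87 at 20 mg/kg. The 20 mg/kg arrays lay more than 1 log2 unit below vehicle and the 4 mg/kg arrays between them. UTP4 was 2.77-fold lower at 20 mg/kg (log2 change -1.47, SE 0.116, adjusted p = 0.0256 by limma). WDR43 and UTP15 belong to the same subcomplex. WDR43 read 5.04 and 5.74 with vehicle, 5.37 and 5.32 at 4 mg/kg, then 3.14 and 4.05 at 20 mg/kg. UTP15 read 6.32 and 6.82 with vehicle, 6.34 and 6.40 at 4 mg/kg, then 4.51 and 5.41 at 20 mg/kg. For both, the 20 mg/kg arrays were lower than all the others but differed from each other by almost 1 log2 unit, and the changes of -1.80 (SE 0.421) and -1.61 (SE 0.378) did not pass (adjusted p = 0.113 each). The 20 mg/kg mean of WDR43, 3.60, lay under the level of 4, which the gene reached through the other groups. With 16 added to the intensities before the log, the WDR43 change was -1.04.

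The subcomplex did not read alike throughout. HEATR1, its largest subunit, read 9.14 and 9.10 with vehicle, 8.63 and 8.95 at 4 mg/kg, then 8.69 and 8.48 at 20 mg/kg (log2 change at 20 mg/kg -0.53, SE 0.142, adjusted p = 0.138). NOL11, another subunit, which is outside the list and is named here after its values were seen, was at -0.29 (SE 0.0754, adjusted p = 0.13). WDR75 gave 7.98 in 5 arrays and 8.18 in a 4 mg/kg array, a flat reading of the kind that the authors' summary method produces when it returns equal values.

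NAT10, the enzyme that acetylates cytidines of 18S ribosomal RNA, read 7.90 and 7.82 with vehicle, 7.43 and 7.52 at 4 mg/kg, then 7.20 and 7.22 at 20 mg/kg. Its groups did not overlap, and it fell 1.56-fold at 20 mg/kg (log2 change -0.65, SE 0.0475, adjusted p = 0.0231 by limma). Of the other processome genes, IMP3, a protein of the U3 particle, was at -0.57 (SE 0.133, adjusted p = 0.111), the helicase DDX10 at -0.40 (SE 0.245), NOP14 at -0.26 (SE 0.111), UTP14A at -0.14 (SE 0.116) and UTP20 at -0.03 (SE 0.0337). WDR3, of the UTP-B subcomplex, was the highest at 0.15 (SE 0.147, adjusted p = 0.585). In all, 2 of 12 tested processome genes fell, 0 rose and 10 did not pass, with a median log2 change of -0.47, beside the 2.07% of all tested genes called lower and 2.26% called higher, against which the counts of the other roles below also stand.

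Among factors of the large subunit, NOP16, a nucleolar protein of its precursors, read 8.23 and 8.10 with vehicle, 7.93 and 7.88 at 4 mg/kg, then 6.81 and 6.95 at 20 mg/kg. The 3 groups were ordered by dose without overlap, and most of the difference lay between the 4 and 20 mg/kg arrays. NOP16 fell 2.43-fold at 20 mg/kg (log2 change -1.28, SE 0.0724, adjusted p = 0.0174 by limma). GNL3L, a nucleolar GTPase, read 5.38 and 5.48 with vehicle, 4.64 and 5.19 at 4 mg/kg, then 4.38 and 4.46 at 20 mg/kg. Its change at 20 mg/kg of -1.01 (SE 0.207) did not pass (adjusted p = 0.094).

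The other 7 large-subunit genes did not pass either. MRTO4 was at -0.76 (SE 0.233), NIP7 at -0.72 (SE 0.226), NOP2, a methyltransferase of 28S ribosomal RNA, at -0.46 (SE 0.148), and the helicase DDX56 at -0.45 (SE 0.0712, adjusted p = 0.0633). RRS1, which helps place the 5S particle, read about 6.00 in 5 arrays and 4.576 in 20 mg/kg replicate 2, so its change of -0.72 (SE 0.522) came from 1 array. WDR12, which works in a complex with PES1 and BOP1, was at -0.11 (SE 0.149) and RRP1B, the highest, at -0.05 (SE 0.142). All 9 tested large-subunit genes were thus below 0, with 1 called and a median of -0.72.

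The late factors of the small subunit were led by PNO1, the partner of the endonuclease NOB1. PNO1 read 8.85 and 8.86 with vehicle, 8.17 and 8.86 at 4 mg/kg, then 7.05 and 7.26 at 20 mg/kg. The 20 mg/kg arrays lay clear of the rest, while the 4 mg/kg arrays were split, 1 of them at the vehicle level. The change of -1.70 (SE 0.263) missed the threshold (adjusted p = 0.0624) and passed in 4 of 17 alternatives, among them centring each array on its median (adjusted p = 0.000704, range over alternatives 0.000704 to 0.709). NOB1 itself read between 8.99 and 9.14 in all arrays (log2 change -0.09, SE 0.0355). LTV1 was at -0.36 (SE 0.206), and TSR1, a GTPase-like factor, was the highest at 0.02 (SE 0.202). RRP12 gave 4.98 in every array. None of the 5 passed.

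In the nucleolar scaffold group, CCDC86, a nucleolar coiled-coil protein, read 7.98 and 8.0 with vehicle, 7.47 and 7.43 at 4 mg/kg, then 7.29 and 7.29 at 20 mg/kg. Arrays of a group were nearly equal, and most of the difference from vehicle was already there at 4 mg/kg. CCDC86 fell 1.62-fold at 20 mg/kg (log2 change -0.70, SE 0.0244, adjusted p = 0.0104 by limma). Its 20 mg/kg values were exactly tied, which narrows the SE. DDX21, a helicase of the nucleolus, read 11.62 and 11.48 with vehicle, 11.54 and 11.84 at 4 mg/kg, then 10.81 and 10.88 at 20 mg/kg (log2 change at 20 mg/kg -0.71, SE 0.123, adjusted p = 0.075). The abundant nucleolar proteins nucleolin and nucleophosmin differed little: NCL was at -0.13 (SE 0.131) and NPM1 at -0.08 (SE 0.0396). NOLC1, a chaperone of small nucleolar particles, was at -0.15 (SE 0.053). Another NOLC1 probe set, nearly as bright (mean 8.58 against 8.66), gave -0.56, and a dim one read 4.14 in every array. At 4 mg/kg the bright probe sets had opposite signs, 0.21 and -0.39. In this group 1 of 5 fell and 4 did not pass.

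Of the box C/D particle, which methylates the precursor RNA, FBL, the methyltransferase, read 11.30 and 11.38 with vehicle, 10.90 and 11.14 at 4 mg/kg, then 10.68 and 10.68 at 20 mg/kg. The groups were ordered by dose without overlap, and the change of -0.66 (SE 0.0928) lay just outside the threshold (adjusted p = 0.0548). NOP58, a core protein of the same particle, was at -0.48 (SE 0.189, adjusted p = 0.249). Of the box H/ACA particle, which converts uridine to pseudouridine, GAR1 was at -0.15 (SE 0.117) and NHP2 at -0.06 (SE 0.0486), neither past the test.

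RNA polymerase I transcription was represented by 2 tested genes of the list, which lay on opposite sides of vehicle at 20 mg/kg. POLR1B, the second largest subunit, read 8.47 and 7.92 with vehicle, 8.45 and 8.84 at 4 mg/kg, then 7.80 and 7.74 at 20 mg/kg (log2 change at 20 mg/kg -0.42, SE 0.247, adjusted p = 0.409). RRN3, also called TIF-IA, the factor that makes the polymerase competent to start, read 8.67 and 8.39 with vehicle, 9.52 and 9.52 at 4 mg/kg, then 8.90 and 9.06 at 20 mg/kg. All 4 treated arrays of RRN3 lay above both vehicle arrays, and the 4 mg/kg arrays were the highest. Its change at 20 mg/kg was 0.45 (SE 0.119, adjusted p = 0.133), the highest of the 37.

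**Figure D2:**
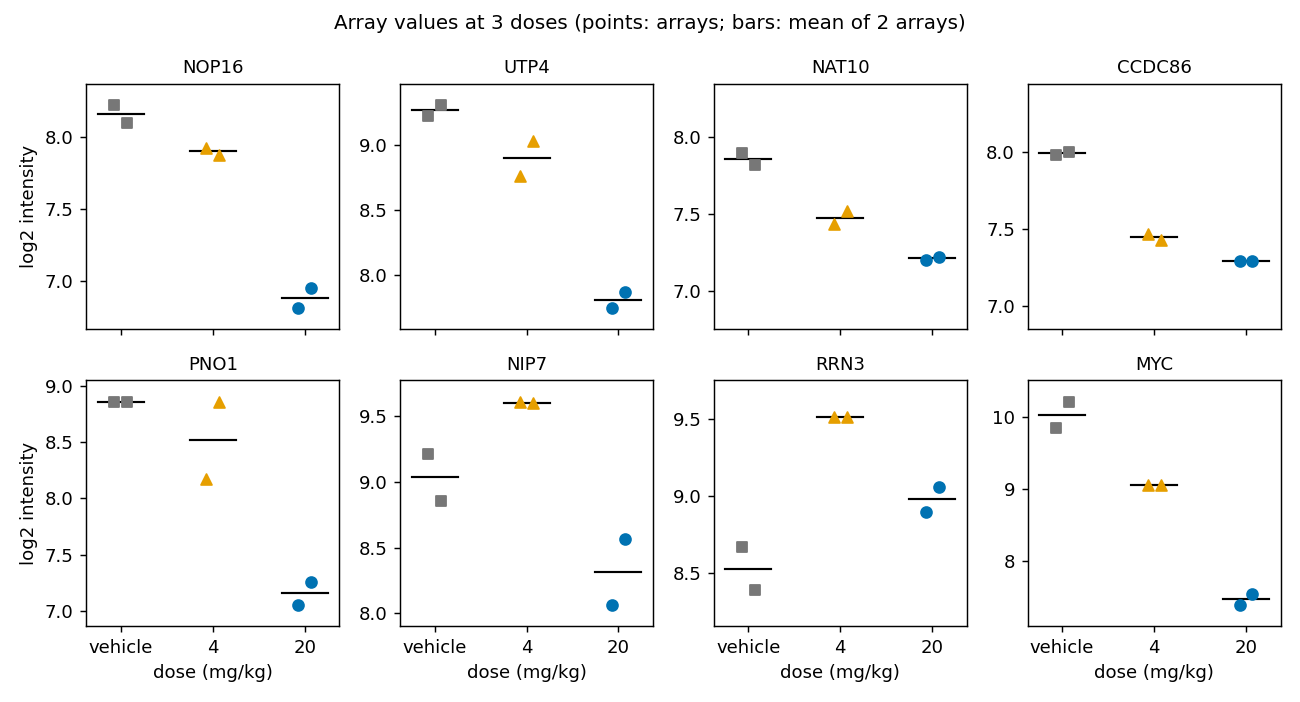
Log2 intensity (y axis, a separate range in each panel) against dose (x axis, mg/kg) for 7 of the genes and MYC, with a point for each array and a bar for the mean of 2 arrays. Each gene is shown by its brightest probe set. NOP16, UTP4, NAT10, CCDC86 and MYC step down with dose, whereas NIP7 and RRN3 are highest at 4 mg/kg.

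At 4 mg/kg the genes were spread around vehicle. The median log2 change was -0.05, against 0.00 over all tested genes, with 20 of 37 below 0, 16 above and 1 equal, where 47.0% of all tested genes were below 0 and 45.3% above. By limma 0 of 37 passed in either direction, beside 0.0292% of all tested genes called lower and 0.0292% called higher, and at an unadjusted p under 0.05 there were 7 lower and 2 higher, beside 4.76% and 12.2% of all tested genes. With arrays centred on their median CCDC86, UTP4, NAT10 and GNL3L were lower and RRN3 was higher, beside 249 lower and 517 higher calls among all tested genes, where the uncentred fit had 3 of each. The nearest to the threshold was CCDC86 (log2 change -0.55, SE 0.0244, adjusted p = 0.0538), which passed without vehicle replicate 1 (adjusted p = 0.0348) or the first 4 mg/kg array (adjusted p = 0.0353), with a range over alternatives of 0.0267 to 0.233. GNL3L was at -0.51 (SE 0.207, adjusted p = 0.358) and IMP3 at -0.43 (SE 0.133, adjusted p = 0.257). NAT10 was at -0.38, UTP4 at -0.37 and NOP16 at -0.26, with both 4 mg/kg arrays below both vehicle arrays in each. On the other side stood RRN3 at 0.99 (SE 0.119, adjusted p = 0.14), which passed without vehicle replicate 1 (adjusted p = 0.0478, range over alternatives 0.0171 to 0.397), NIP7 at 0.57 (SE 0.226, adjusted p = 0.346) and POLR1B at 0.45 (SE 0.247, adjusted p = 0.489). At other probe sets NIP7 was at 0.08, and POLR1B at 0.07 and -0.01. RRP1B read 10.22 in both vehicle arrays and in 4 mg/kg replicate 1, and 10.60 in 4 mg/kg replicate 2. Its log2 change of 0.38 without 4 mg/kg replicate 1 therefore came from 1 array. Arrays did not overlap for 13 genes lower and 5 higher, beside 14.8% and 22.8% of all tested genes.

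Between the doses, the 20 mg/kg arrays stood below the 4 mg/kg arrays for most genes. The median log2 change was -0.26, against -0.01 over all tested genes, with 35 of 37 below 0, and 1 above, where 51.6% of all tested genes were below 0 and 39.7% above. Both 20 mg/kg arrays lay below both 4 mg/kg arrays for 27 of the 37, or 73.0%, beside 22.8% of all tested genes, and for 0 genes lay both above, beside 13.6%. By limma 0 of 37 passed, beside 0.243% of all tested genes called lower and 0.127% called higher, with 14 lower and 0 higher at an unadjusted p under 0.05, beside 8.79% and 4.62%. With arrays centred on their median 8 were lower, beside 267 lower and 227 higher calls among all tested genes, and after quantile normalization 5, beside 175 lower and 155 higher, where the unscaled fit had 25 lower and 13 higher. Leaving out 4 mg/kg replicate 1 put RRP1B at -0.43, a change that rested on 1 array of 4 mg/kg. By limma over all arrays NOP16 was nearest to the threshold (log2 change -1.02, SE 0.0724, adjusted p = 0.0527), followed by UTP4 (-1.10, SE 0.116, adjusted p = 0.0832). WDR43, whose 20 mg/kg mean lay under the level of 4, was at -1.75 (SE 0.421). UTP15 was at -1.41 (SE 0.378), PNO1 at -1.36 (SE 0.263) and NIP7 at -1.29 (SE 0.226). NIP7 read 9.21 and 8.86 with vehicle, 9.61 and 9.60 at 4 mg/kg, then 8.06 and 8.56 at 20 mg/kg. On this probe set the treated groups lay on opposite sides of vehicle. Another NIP7 probe set read 8.49 and 8.68 with vehicle, 8.49 and 8.84 at 4 mg/kg, then 7.98 and 8.35 at 20 mg/kg. There the vehicle and 4 mg/kg arrays overlapped. The comparisons with vehicle share their vehicle arrays, and the comparison of doses shares the treated arrays with both.

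Several genes have more than 1 probe set, and these did not always read alike. For 12 of the 37, at least 2 probe sets reached a mean log2 of 4. Their brightest probe sets had a median change of -0.72 at 20 mg/kg, and the 18 others a median of -0.17, with 15 below 0, 1 above and 2 equal. UTP4 agreed between its probe sets, at -1.47 and -1.33. NOP16 was at -1.28 and -0.51, PNO1 at -1.70 and -0.21, and GNL3L at -1.01 and -0.06. TSR1 differed the other way, with 0.02 for the brightest, which may bind other transcripts by its design class, and -1.04 for the second. NOLC1 was at -0.15 for the brightest, then -0.56 and 0.00. POLR1B was at -0.42, 0.05 and -0.18. The probe sets that gave 0.05 for POLR1B and -0.21 for PNO1 were of the same design class as the brightest of TSR1. With the next brightest probe set for every gene, 22 of the 37 had a value, the median was -0.06 and none passed, but 10 of the 22 came from probe sets under the level of 4. Sizes for a single gene therefore depend on the probe set, and NAT10 and CCDC86 had no second probe set above the level.

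**Figure D3:**
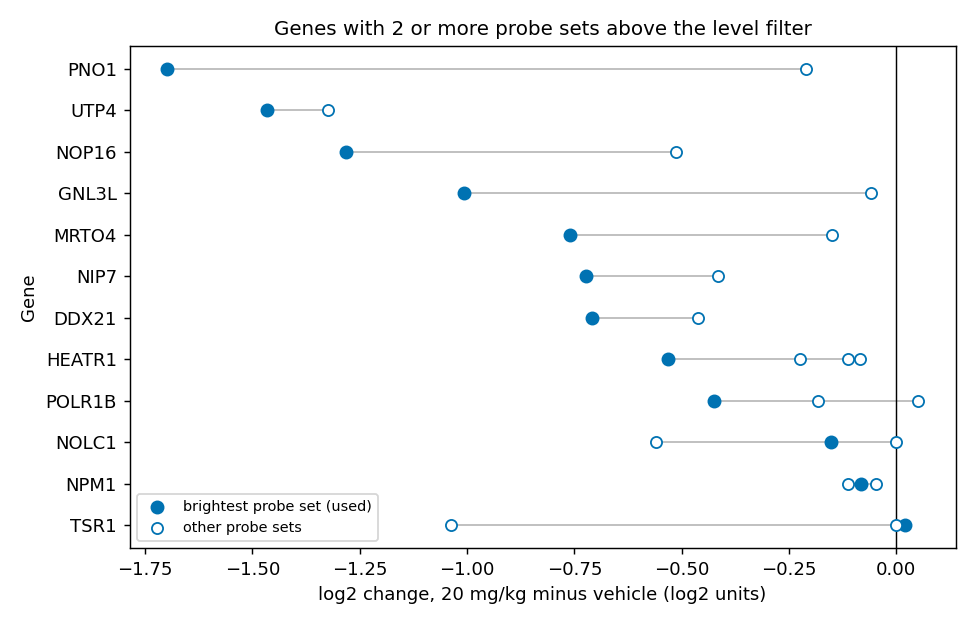
Log2 change at 20 mg/kg against vehicle (x axis, log2 units) for the 12 genes with at least 2 probe sets above the level (rows), filled for the brightest probe set and open for the others. UTP4 has its points close together, while PNO1, GNL3L and TSR1 are spread by about 1 log2 unit or more.

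Of further genes of the same pathway, 86 were listed and 71 tested. They included other RNA polymerase I factors, processome and late small-subunit factors, large-subunit factors and assembly factors of small nucleolar particles, and the list was written with earlier results of these data known. At 20 mg/kg their median log2 change was -0.10, with 53 below 0, 12 above and 6 equal, where 49.4% of all tested genes were below 0. The called genes were 2 lower and 1 higher of the 71, near the shares of all tested genes called lower, 2.07%, and higher, 2.26%. By limma the genes that fell were RCL1 (log2 change -0.37, SE 0.0302, adjusted p = 0.0258) and MAK16 (-0.51, SE 0.0497, adjusted p = 0.0331), and the one that rose was RSL24D1 (0.41, SE 0.0325, adjusted p = 0.0254). MAK16 and RSL24D1 lost their call whichever array was left out, and RCL1 kept its call in 2 of those 6 fits. RCL1 is a processome protein, and MAK16 and RSL24D1 belong to precursors of the large subunit. RCL1 read 7.3558 in every treated array, which narrows its SE. The other RNA polymerase I factors had 0 of 11 called and a median of -0.07, with 9 below 0, 1 above and 1 equal. The largest absolute values of each group were EMG1 (-1.21, SE 0.319, adjusted p = 0.133), a methyltransferase of 18S ribosomal RNA, TAF1A (-0.99, SE 0.291), a subunit of the RNA polymerase I promoter factor, RSL1D1 (-0.87, SE 0.154, adjusted p = 0.0759) and RUVBL2 (-0.29, SE 0.214). The highest values among those that did not pass, named after they were seen, were DDX52 (0.74, SE 0.109, adjusted p = 0.0573), UTP23 (0.59, SE 0.0878, adjusted p = 0.0584) and NMD3 (0.45, SE 0.0882, adjusted p = 0.0886). At 4 mg/kg 0 of 71 passed, with a median of -0.02, and between the doses 0 of 71 passed, with a median of -0.07. Whether these genes differ from the 37 was not tested.

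**Figure D4:**
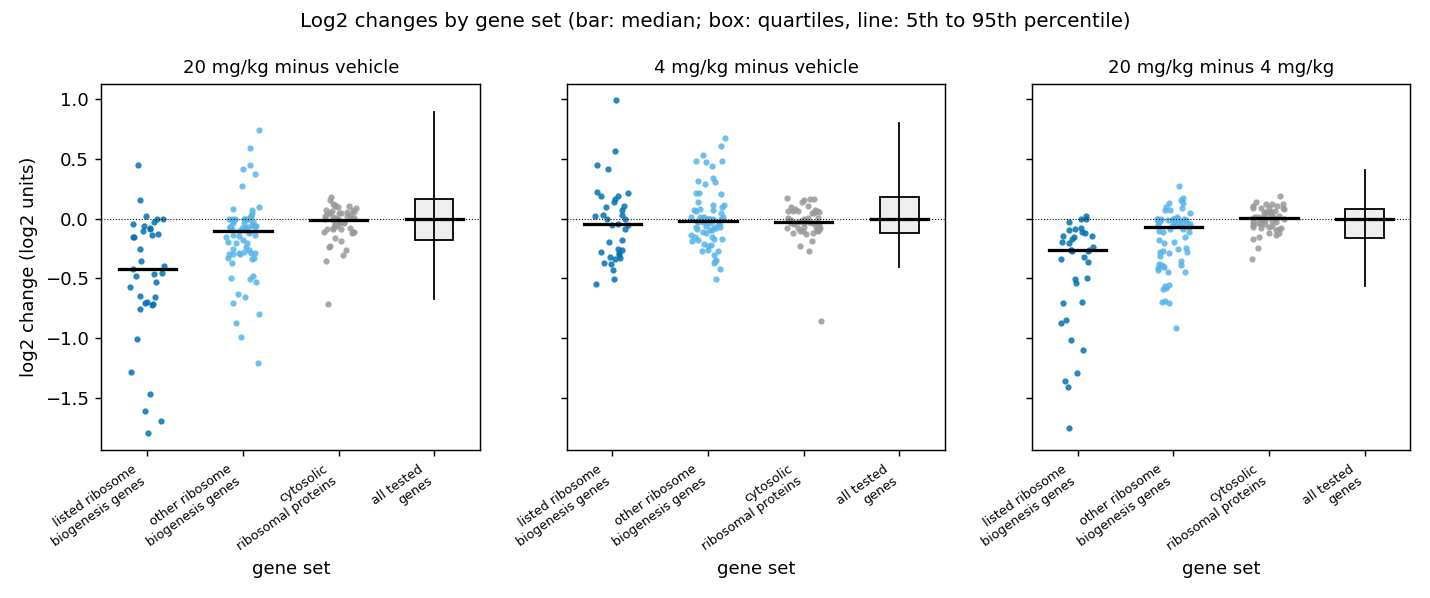
Log2 change (y axis, log2 units) of single genes in 3 comparisons (panels) for the 37 listed ribosome biogenesis genes, 71 other ribosome biogenesis genes and 52 cytosolic ribosomal proteins, with a bar at each median, beside the quartiles (box) and the 5th to 95th percentile (line) of all 10271 tested genes. At 20 mg/kg against vehicle the medians are -0.42, -0.10, -0.01 and 0.00, in that order.

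MYC, the transcription factor known to drive genes of this pathway, read 9.84 and 10.21 with vehicle, 9.05 and 9.05 at 4 mg/kg, then 7.39 and 7.54 at 20 mg/kg. It fell 5.89-fold at 20 mg/kg (log2 change -2.56, SE 0.146, adjusted p = 0.0174 by limma), a call kept in 2 of 6 fits without 1 array (log2 change -2.74 to -2.38, adjusted p 0.0217 to 0.102). Its partner MAX read 12.21 and 12.28 with vehicle, 12.28 and 12.35 at 4 mg/kg, then 12.61 and 12.60 at 20 mg/kg, and rose by a log2 change of 0.36 (SE 0.0428, adjusted p = 0.0427), a call lost whichever array was left out (adjusted p 0.0697 to 0.191). Both 4 mg/kg arrays of MYC read 9.0453, which narrows its SE. The group means of MYC and MAX followed the dose, in opposite directions. Of the 7 tested genes of the MYC, MAX and MXD network these were the 2 that passed. Whether MYC has a part in the values of the ribosome biogenesis genes was not tested.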

How the data were processed

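The authors deposited intensity values on a linear scale for 54675 probe sets, and the submitters' processing notes name GCRMA and R 2.10.0. That method corrects background, equalizes array distributions and summarises probes by median polish, which can return equal values: 11 of the 37 tested genes were tied in both arrays of at least 1 group (within 1e-06 log2 units), as were 32.3% of all tested genes. Intensities were converted to log2. Platform annotation gave 1 gene for 41097 probe sets, several for 1801 and none for 11777. The brightest single-gene probe set stood for each gene, and genes with a mean log2 under 4 were left out, leaving 10271 of 19775. limma 3.58.1 in R 4.3.3 (lmFit, eBayes) was fitted over all 6 arrays with 3 two-sided contrasts, Benjamini-Hochberg adjustment over all tested genes and a threshold of 0.05. SEs are moderated and pooled over the 3 groups. With 2 arrays a group, the number of arrays limits precision. The steps were run on simulated data without tied values, to check that estimated changes lay close to the simulated ones. That check does not cover calls on tied genes. Genes named with values are those past the threshold, the 2 lowest and the highest of each role group at 20 mg/kg, and, in companion lists, those past it and the largest change, and the other genes given with values were chosen after their values were seen. The 49 genes, the lists and the rules were chosen with earlier results of these data known. Alternatives covered the probe set, level filter, added constant, normalization, moderation, tied genes, arrays in the fit and the replicate number. No sequences are printed, since the sequence tables used here are of mouse and the probe sets are of human genes.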

Additional observations from a re-analysis of the deposited data

How the results depend on the processing

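With 2 arrays a group, calls depend on the arrays and the settings more than directions do. At 20 mg/kg against vehicle the 4 lower calls became 0 with the next brightest probe set, 1 without a level filter, 7 with a mean log2 of at least 6, 13 under quantile normalization, 17 with median-centred arrays, 2 when fitted on the compared arrays, 2 with the replicate number as a block and 8 without genes tied in every group, and 0 to 3 when 1 array was left out. The share of all tested genes called in either direction moved too, to 0.196%, 0.288%, 7.63%, 15.6%, 19.1%, 1.32%, 0.905% and 8.41% in the same order. Lower calls alone among all tested genes, 213 in the main fit, were 9 (of 7141 tested), 35 (of 19775), 307 (of 8457), 757, 935, 68, 57 and 360. The median of -0.42 became -0.063 with the next brightest probe set, -0.24 with the mean of probe sets (both settings take in probe sets under the level) and -0.24 without a level filter. At 4 mg/kg the 0 lower calls became 1 without probe sets ending in _x_at or _s_at, under quantile normalization and with a trended prior. With centred arrays there were 4 lower and 1 higher. Lower calls among all tested genes, 3 in the main fit, were 3 (of 7508 tested), 39, 6 and 249 in the same order, and higher calls with centred arrays were 517. The median of -0.05 became 0.021 with the stricter filter and -0.14 with centred arrays, where that of all tested genes moved to -0.0988. Between the doses the 0 lower calls became 1 without _x_at and _s_at sets, with the stricter filter and without tied genes. They became 5 after quantile normalization and 8 with centred arrays. Lower calls among all tested genes, 25 in the main fit, were 25, 33, 53, 175 and 267 in the same order. That median of -0.26 became -0.075 with the next brightest probe set, -0.16 with the mean of probe sets, -0.20 with centred arrays, and -0.36 to -0.22 when 1 array was left out. Of the 149 tested companion genes, 5 were lower and 2 higher at 20 mg/kg. These became 0 and 0 with the next brightest set or no level filter, and 0 higher with the mean of sets. They became 1 and 0 without _x_at and _s_at sets, and 4 higher with the stricter filter. Under quantile normalization they were 16 and 7, and with median-centred arrays 16 and 5. On the compared arrays they were 0 and 1, with the replicate block 1 and 0, and without tied genes 5 were higher. At 4 mg/kg 0 companions passed in either direction. After quantile normalization 1 was lower, beside 39 lower among all tested genes. With centred arrays 2 were lower and 3 higher, beside 249 and 517. Between the doses 0 passed. There 2 were lower under quantile normalization, 3 with centred arrays and 1 without tied genes, beside 175, 267 and 53 of all tested genes. In every comparison calls also moved when 1 array was left out, among companions and among all tested genes. Signs turned for 3 named genes at 20 mg/kg, none of them called: POLR1B (0.051), WDR3 (-0.0033) and TSR1 (-1.04) with the next brightest probe set, and TSR1 also with the mean of sets (-0.26), under quantile normalization (-0.016) and with centred arrays (-0.011), with values from -0.086 (without vehicle replicate 2) to 0.13 when 1 array was left out. Between the doses TSR1 turned under quantile normalization (0.049) and with centred arrays (0.067), with values from -0.25 to 0.25 (without 4 mg/kg replicate 1) when 1 array was left out. The causes were not tested. The promoter motif count was not run, since no human promoter sequence was used here. CCDC86 kept its call at 20 mg/kg in 15 of 17 alternatives, UTP4 in 12 of 18, NAT10 in 9 of 17 and NOP16 in 9 of 18. Same-numbered arrays did not deviate together in every pair of groups. The correlation r was 0.146 for vehicle with 4 mg/kg, -0.118 for vehicle with 20 mg/kg and 0.127 for 4 with 20 mg/kg. These values cannot show whether the numbers pair the samples, and the labels do not say. The block moved the lower calls from 4 to 2 at 20 mg/kg.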

Other observations

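Cytosolic ribosomal proteins, the structural partners of the RNA that these genes process, stayed near vehicle at 20 mg/kg. Of 80 listed, 52 were tested and 28 were not. The tested ones had a median log2 change of -0.01, with 28 below 0 and 24 above, where 49.4% of all tested genes were below 0. Many were very bright, with mean log2 intensities up to 15.22 (RPS16). Whether the arrays can show changes at that level was not tested. By limma 1 fell, beside 2.07% of all tested genes, and this was RPL3 (log2 change -0.23, SE 0.0295, adjusted p = 0.0475), called in 1 of 6 fits without 1 array (adjusted p 0.0396 to 0.19). RPL27A had the largest value, -0.72 (SE 0.438, adjusted p = 0.428). Of 9 tested RNA polymerase III genes, which transcribe transfer RNAs and 5S ribosomal RNA, the subunit POLR3K fell (log2 change -0.56, SE 0.0726, adjusted p = 0.0486), a call lost whichever array was left out (adjusted p 0.0758 to 0.197), while BDP1, a subunit of its promoter factor, was at 1.1 (SE 0.222, adjusted p = 0.092). RNA exosome genes, which trim ribosomal RNA precursors, had 0 of 10 past the test and a median of -0.00, and C1D, an exosome cofactor, was at 1.81 (SE 0.318, adjusted p = 0.0757). C1D read 10.003 and 10.133 at 20 mg/kg against 8.69 and 7.83 with vehicle.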
